A study of Rattus norvegicus with 8 samples.

Results

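The glutathione S-transferases (GSTs) were examined in the ovary of rats given an androgen. The 8 genes described are Gstt1, Gstt2, Gstp1, Gstm1, Gstm2, Gsta4, Gsto1 and Mgst1, which stand for the theta, pi, mu, alpha, omega and membrane-bound classes of the family. They were taken by name, with every probe set of the array that the annotation gives to that gene alone, which made 9 probe sets of 31042, and a gene read by more than 1 probe set was represented by its brightest one, judged by the mean of the single-animal arrays. All 8 genes were measured, against 14218 genes on the array that have a probe set of their own.

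The DHT animals were female Sprague-Dawley rats that carried a silicone capsule releasing 5α-dihydrotestosterone, a potent androgen that aromatase does not turn into an estrogen, for 12 weeks, and the CTL animals were females of the same strain with an empty capsule. The capsule exposes the whole animal, so effects on the ovary itself and effects through other organs cannot be told apart. The ovarian cortex was taken at 15 weeks of age, and RNA of 3 independent rats of each group was read on 1 Affymetrix rat genome array per rat, with 1 further array per group for an equal mixture of the RNA of those 3 rats. The study's methods describe the DHT ovaries as nearly or wholly without corpora lutea, which most CTL ovaries had.

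GSTs join the tripeptide glutathione to reactive molecules such as lipid peroxidation products, quinones and drugs, after which the conjugates are pumped out of the cell and broken down. In the ovary, cells that make steroids are exposed to peroxides formed by their mitochondria, and several GST classes are known from granulosa, theca and luteal cells. Many GST genes in rodents are targets of Nrf2 (Nfe2l2), a factor that binds the antioxidant response element, and the androgen receptor binds its own response element in DNA.

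Promoter sequences from RefSeq (GRCr8, 250 bases before to 50 after the start site) were given for 6 of the 8 genes, all but Gstt1 and Gstt2. The core of the antioxidant response element, TGACNNNGC on either strand, lay in 1 of the 6, in Gstp1, and in 12.06% of all 33469 promoters. One arm of the androgen response element, AGAACA on either strand, lay in 2 of the 6, in Gstm1 and Gsta4, and in 20.68% of all promoters. Stretches around these matches, with the match in capitals, are shown because the motifs searched for were those named for Nrf2 and for the androgen receptor. The Gstp1 stretch is chr1:210769728-210769796 on the minus strand, and its match begins 61 bases before the start site. The Gstm1 stretch is chr2:198343571-198343633 on the minus strand. The Gsta4 stretch is chr8:87947115-87947180 on the plus strand and holds the arm in reverse, as TGTTCT, 120 bases before the start site.
Gstp1: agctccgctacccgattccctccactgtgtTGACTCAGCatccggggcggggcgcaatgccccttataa
Gstm1: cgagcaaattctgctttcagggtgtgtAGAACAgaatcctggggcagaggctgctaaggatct
Gsta4: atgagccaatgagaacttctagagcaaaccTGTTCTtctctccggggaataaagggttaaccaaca
A match of letters is a description and shows neither that a factor binds there nor which factor it would be.

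The arrays were not all alike, and several results below turn on 1 of them. CTL replicate 3 correlated at 0.866 to 0.879 with the other CTL animals over all probe sets, whereas CTL replicates 1 and 2 correlated at 0.983 with each other and the DHT animals at 0.984 or more. The Gapdh 3' to 5' difference, the log2 value of the control probe set at the 3' end of Gapdh mRNA minus that at its 5' end, which grows as the labelled RNA becomes shorter, was 3.61, 2.99 and 3.98 in the DHT animals, against 0.39, 0.62 and 3.49 in CTL replicates 1, 2 and 3. Ovarian markers were present, among them the granulosa genes (summed log2 level 12.21 to 12.47 in DHT animals and 11.07 to 11.87 in CTL animals, 6 of 7 measured). Of the markers of other tissues, 3 of 5 for liver (Alb, Serpina1 and Fgb), 4 of 5 for acinar pancreas (Prss1, Pnlip, Cel and Cpb1) and 3 of 5 for fat (Adipoq, Plin1 and Lep) were near background on all 6 arrays of single animals. Of the others, the fat markers Lpl and Cfd read 3.40 to 3.65 and 2.65 to 3.52 in DHT animals, against 3.90 to 5.38 and 2.80 to 5.40 in CTL animals, and the pancreatic Amy2a3 read 2.81 to 2.90 in DHT animals and 2.77 to 3.63 in CTL animals.

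The comparison asked which GST transcripts differ between DHT and CTL ovaries. Differences are given as log2 expression in DHT minus CTL, fitted by limma over all probe sets, and a call required at least a 2-fold change together with p no greater than 0.01 and a false discovery rate no greater than 10%. By these criteria 0 of the 8 genes were called lower and 0 higher, beside 0.351% of all probe sets called lower and 0.68% called higher. An unadjusted limma p under 0.05 was found for 3 of the 8 genes, Gstt1, Gstt2 and Gsta4, and for 11.9% of all probe sets. The exact permutation test, two-sided, cannot go below 0.1 with 3 animals against 3, and Gstt1, Gstt2, Gstm1 and Gsta4 stood at that smallest value. The difference was positive for 7 of the 8 and negative for Gstt1 alone, with a median of 0.29. Over all probe sets the median was -0.03, and 62.5% were negative. This contrast is not of like with like. The 8 genes read above background, whereas 10469 of all probe sets did so on none of the 8 arrays. CTL replicate 3 departed from CTL replicates 1 and 2 by a median of 0.13 over all probe sets. Over the 15149 above background on the 6 arrays of single animals that median was -0.10. The share of negative differences among brighter probe sets alone was not tested. Without CTL replicate 3 the tally of the 8 genes was 5 positive and 3 negative, since Gstp1 and Gstm2 turned negative. All DHT animals lay below all CTL animals for 1 gene, Gstt1, and above them for 3 genes, Gstt2, Gstm1 and Gsta4, where 6.85% and 10.6% of all probe sets did so.

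Without CTL replicate 3, the same criteria called Gstt1 lower and Gsta4 higher, and 3.12% of all probe sets were called lower and 2.11% higher. In that fit the Gapdh 3' to 5' difference was 2.99 to 3.98 in the DHT animals, and 0.39 and 0.62 in the CTL animals left. Treatment and RNA length therefore cannot be told apart in it, here and wherever CTL replicate 3 is left out below. With the arrays of mixed RNA counted as replicate 4 of each group, the same genes were called, beside 1.39% lower and 1.72% higher over all probe sets. The mixed RNA comes from the same animals, so the second of these fits adds no animal.

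**Figure D1:**
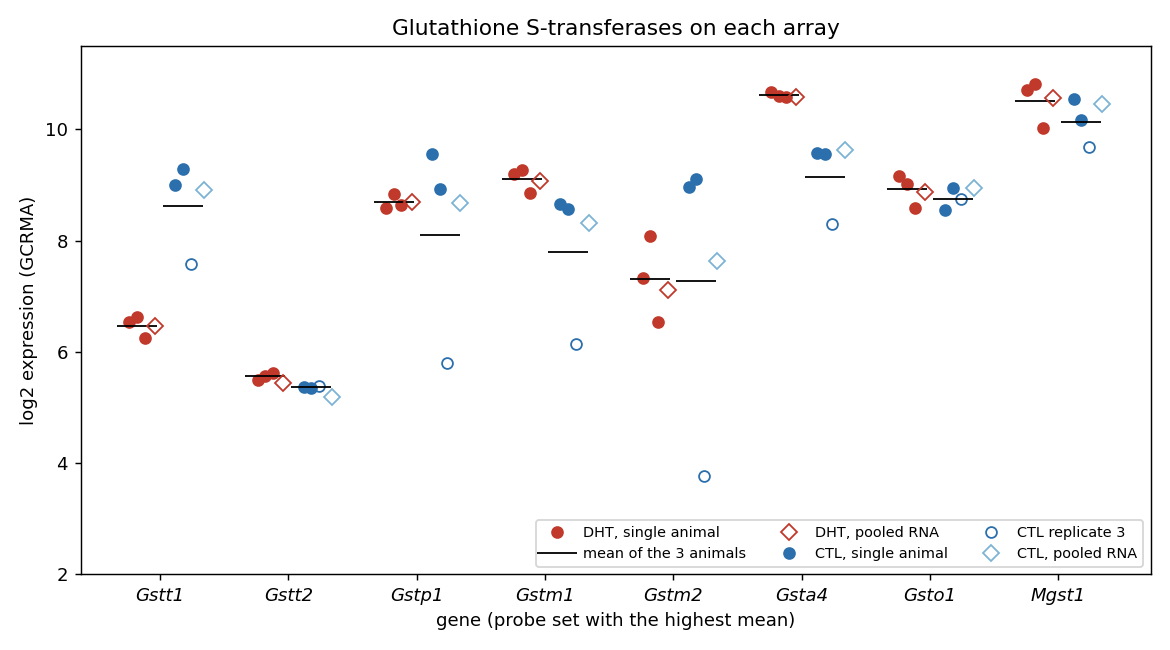
Log2 expression (GCRMA, y axis) of each GST gene (x axis) on every array, with DHT in red to the left and CTL in blue to the right. Each filled circle is 1 animal, the open circle is CTL replicate 3, diamonds are mixed RNA and the lines are means of the 3 animals. Gstt1 lies lower, and Gstt2, Gstm1 and Gsta4 higher, in all DHT animals than in all CTL animals. The open circle lies far under the other CTL points for Gstp1, Gstm1 and Gstm2.

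Gstt1, the theta-class enzyme known for conjugating small halogenated hydrocarbons, had the largest difference of the 8 genes. Its log2 level was 6.53, 6.63 and 6.25 in DHT animals 1, 2 and 3, against 9.0, 9.29 and 7.57 in CTL animals 1, 2 and 3. All DHT values lay below all CTL values, and the DHT animals were close together while CTL replicate 3 was well under the other CTL animals. The means were 6.47 ± 0.20 in DHT and 8.62 ± 0.92 in CTL (SD, n = 3 each). The log2 difference was -2.15 (SE 0.48, 95% interval -3.36 to -0.93), which is 4.43-fold higher in CTL, with a limma p of 0.00584 and an adjusted p of 0.155. Set against CTL replicate 3 alone the DHT mean differed by -1.10, and set against CTL replicates 1 and 2 by -2.67 (limma adjusted p = 0.017). The arrays of mixed RNA read 6.46 for DHT and 8.92 for CTL. In whole tissue, fewer cells of a type and less RNA per cell cannot be told apart, here and for every gene that follows.

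Gstt2, the other theta-class gene, which has peroxidase activity towards organic peroxides, gave a small difference in the opposite direction. Its log2 level was 5.50, 5.57 and 5.61 in DHT animals, against 5.37, 5.34 and 5.38 in CTL animals. The groups did not overlap, and CTL replicate 3 stood with the other CTL animals. The log2 difference was 0.20 (SE 0.06, 95% interval 0.05 to 0.35) with a limma adjusted p of 0.277. A second Gstt2 probe set read between 2.86 and 2.89 in DHT animals and between 2.86 and 3.23 in CTL animals, little above the background level of the arrays (2.67 to 3.09), with overlapping groups and a log2 difference of -0.12 (limma adjusted p = 0.896).

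Gsta4, the alpha-class enzyme with high activity towards hydroxynonenal, a product of lipid peroxidation, was higher in each DHT animal than in each CTL animal. Its log2 level was 10.67, 10.60 and 10.59 in DHT animals, against 9.57, 9.57 and 8.30 in CTL animals. The DHT animals differed little from each other, as did CTL replicates 1 and 2, and CTL replicate 3 was the lowest of the 6. The means were 10.62 ± 0.05 in DHT and 9.15 ± 0.74 in CTL (SD, n = 3 each). The log2 difference was 1.48 (SE 0.38, 95% interval 0.52 to 2.43), or 2.78-fold, with a limma p of 0.0103, just over the limit, and an adjusted p of 0.202. It was 2.32 against CTL replicate 3 alone and 1.05 against CTL replicates 1 and 2 (limma adjusted p = 0.0087), and mixed RNA read 10.57 for DHT and 9.63 for CTL.

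The mu-class genes Gstm1 and Gstm2, whose enzymes act on aromatic electrophiles and quinones, had different patterns. Gstm1 had log2 levels of 9.20, 9.27 and 8.86 in DHT animals, against 8.66, 8.57 and 6.14 in CTL animals. The groups did not overlap, but CTL replicate 3 made most of the difference in means. The log2 difference was 1.32 (SE 0.73, 95% interval -0.54 to 3.18, limma adjusted p = 0.611), and it was 0.50 without CTL replicate 3. Gstm2 had log2 levels of 7.32, 8.07 and 6.54 in DHT animals, against 8.97, 9.12 and 3.76 in CTL animals. CTL replicates 1 and 2 were above all DHT animals and CTL replicate 3 was below them, so the log2 difference of 0.03 (SE 1.59, 95% interval -4.02 to 4.08, limma adjusted p = 0.994) became -1.73 without that animal, with a limma adjusted p of 0.143.

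Gstp1, the pi-class enzyme, which also binds and restrains the stress kinase JNK, depended on the same array. Its log2 level was 8.58, 8.84 and 8.65 in DHT animals, against 9.56, 8.93 and 5.80 in CTL animals. The DHT animals lay within the range of the CTL animals, under replicates 1 and 2 and over replicate 3. The log2 difference was 0.60 (SE 1.02, 95% interval -2.00 to 3.19, limma adjusted p = 0.896) with all animals and -0.55 without CTL replicate 3. Mixed RNA read 8.69 for DHT and 8.68 for CTL.

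Gsto1, the omega-class enzyme, which reduces dehydroascorbate and arsenic compounds rather than conjugating glutathione, read 9.17, 9.03 and 8.59 in DHT animals, against 8.55, 8.94 and 8.74 in CTL animals. The groups overlapped, no animal stood apart, and the log2 difference was 0.19 (SE 0.19, 95% interval -0.29 to 0.67, limma adjusted p = 0.896). Mgst1, a membrane-bound transferase and peroxidase of the endoplasmic reticulum and mitochondria, read 10.70, 10.82 and 10.02 in DHT animals, against 10.54, 10.17 and 9.67 in CTL animals. These groups overlapped too, with a log2 difference of 0.38 (SE 0.31, 95% interval -0.41 to 1.18, limma adjusted p = 0.867). For both genes the interval leaves out a doubling or more in the direction of CTL, and for Gsto1 also in the direction of DHT.

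**Figure D2:**
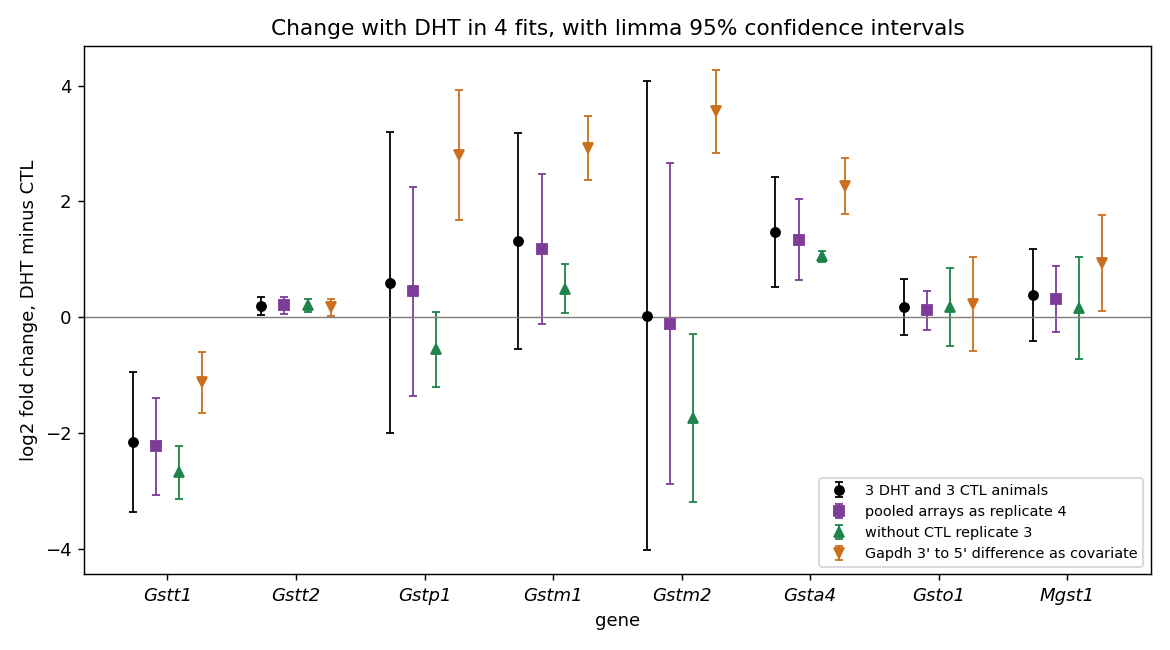
Log2 fold change, DHT minus CTL (y axis), of each GST gene (x axis) in 4 limma fits, with 95% confidence intervals as bars. Gstt1 stays under 0 in all 4 fits, and Gstt2, Gstm1, Gsta4, Gsto1 and Mgst1 stay over 0 in all 4. Gstp1 and Gstm2 lie under 0 without CTL replicate 3 and well over 0 with the Gapdh 3' to 5' difference entered as covariate.

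How far CTL replicate 3 departed from CTL replicates 1 and 2 differed between the genes. It was lower by 5.28 on the log2 scale for Gstm2, and 0.066% of the 15149 probe sets above background on the 6 arrays had a difference as low or lower. For Gstp1 it was -3.44, with 1.37% as low or lower, and for Gstm1 it was -2.47, with 4.96%. The departure was milder for Gstt1 (-1.57, with 14.1% as low or lower), Gsta4 (-1.27, with 19.1%) and Mgst1 (-0.68, with 32.4%). Gstt2 and Gsto1, departed by 0.03 and -0.0029. Over these probe sets the median departure was -0.10. Probe sets that fell to background on CTL replicate 3 are not among them, so the shares as low or lower can be too small.

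The Gapdh 3' to 5' difference separated the arrays in another way, since on this measure CTL replicate 3 stood with the DHT animals. With it as a covariate in limma, Gstt1 was called lower (log2 difference -1.12, adjusted p = 0.0174), and 4 genes were called higher, Gstp1 at 2.80, Gstm1 at 2.92, Gstm2 at 3.56 and Gsta4 at 2.27, each with an adjusted p of 0.0157. This fit called far more of the array than the fit without the covariate, 3.5% of all probe sets lower and 8.57% higher. An unadjusted limma p under 0.05 was found for 18153 of 31042 probe sets, against 3681 without the covariate. CTL replicate 3 was the only single CTL animal with a Gapdh difference in the range of the DHT animals. The log2 differences of the 5 genes in this fit are close to those of the DHT mean from CTL replicate 3 alone. The latter were -1.10, 2.89, 2.97, 3.55 and 2.32 for Gstt1, Gstp1, Gstm1, Gstm2 and Gsta4. The mixed CTL RNA, 1 array of the same animals, had a Gapdh difference of 2.62, nearer to the DHT arrays. It read Gstt1, Gstp1, Gstm1 and Gstm2 at 8.92, 8.68, 8.31 and 7.64, within the range of the CTL animals but under CTL replicates 1 and 2. Gsta4 read 9.63 on it, just above the range of the CTL animals. The part of RNA length in these results was not tested beyond these fits.

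**Figure D3:**
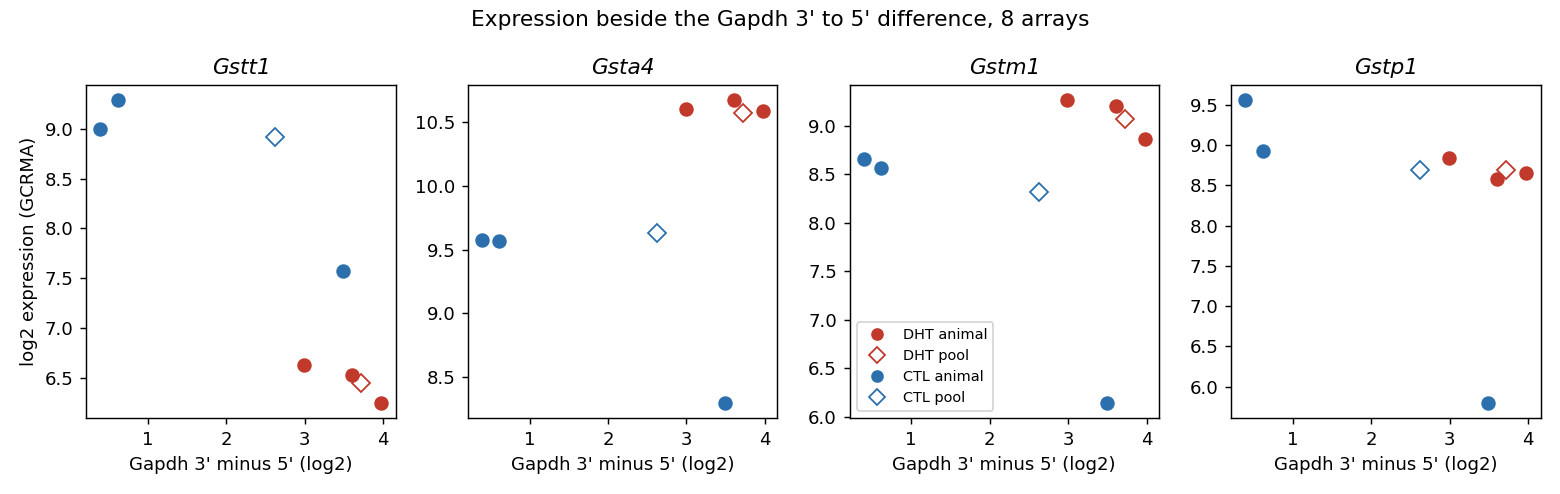
Log2 expression (y axis) of Gstt1, Gsta4, Gstm1 and Gstp1 beside the Gapdh 3' to 5' difference in log2 units (x axis) of the same array. Red marks DHT and blue CTL, circles are single animals and diamonds mixed RNA. The single CTL circle at the right, CTL replicate 3, has a Gapdh difference of 3.49 like the DHT animals but lies above them for Gstt1 and below them for Gsta4, Gstm1 and Gstp1.

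Cell type markers moved with the groups as well. The luteal cell genes had a summed log2 level of 9.07 to 11.24 in DHT animals, against 12.48 to 14.01 in CTL animals, and 5 of 5 measured genes had a negative difference, with a median of -3.75 and 0 called. One of these genes, Ptgfr, was near background in all DHT animals and in CTL replicate 3. The macrophage genes had a summed log2 level of 7.66 to 8.05 in DHT animals, against 8.73 to 9.86 in CTL animals and all 7 had a negative difference, with Ctss, a lysosomal protease, called lower. Groups overlapped for the macrophage genes Csf1r, Cd163 and C1qb. The summed level of the granulosa genes, given above and led by Inha, was higher in each DHT animal than in each CTL animal. Of the 6 measured 5 had a positive difference and 0 were called, Foxl2 and Nr5a2 overlapped, and Cyp19a1, the aromatase gene, was negative at -2.91 with overlapping groups. Summed levels did not overlap either for oocyte genes (6.55 to 6.94 in DHT animals, 5.85 to 6.32 in CTL animals, Zp2 called higher), endothelial genes (7.23 to 7.77 in DHT animals, 7.95 to 8.69 in CTL animals), adipocyte genes (5.02 to 5.23 in DHT animals, 5.32 to 6.64 in CTL animals) and, narrowly, surface and oviduct epithelium (6.41 to 6.92 in DHT animals, 5.88 to 6.40 in CTL animals). Of the oocyte genes 3 of 6 were negative, Zp1 and Bmp15 were near background on all 6 arrays, and all but Zp2 overlapped. Of the 4 measured endothelial genes 3 were negative, and Vwf was positive at 0.35 with overlapping groups. The adipocyte genes Adipoq, Plin1 and Lep were near background on all 6 arrays and read highest on CTL replicate 3, and Cfd overlapped. Every epithelial gene overlapped, and 3 of 6 were negative. Theca genes (10.40 to 11.97 in DHT animals and 9.26 to 12.13 in CTL animals), of which Insl3 was called higher, and stromal fibroblast genes (12.69 to 12.95 in DHT animals and 10.61 to 12.93 in CTL animals) overlapped. The part of these cell types in the GST differences was not tested.

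The other genes of the family were read from a list of 22, of which 17 had a probe set of their own. Gsta2 and Gsta5 share a probe set and were given no value. In the limma fit 0 of the 17 were called in either direction, 1 had an unadjusted p under 0.05, and the median log2 difference was 0.09, with 8 negative and 9 positive. Gsta3, Gstm3 and Hpgds were near background on the 6 arrays.

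Gstt3, a theta-class gene that neighbours Gstt1 and Gstt2 in the genome, read 10.05, 10.40 and 10.18 in DHT animals, against 10.90, 10.98 and 10.50 in CTL animals. All DHT values lay below all CTL values, as for Gstt1, but with a smaller log2 difference of -0.59 (SE 0.17, limma adjusted p = 0.249). Of the theta-class genes, then, Gstt1 and Gstt3 were lower and Gstt2 slightly higher in each DHT animal, and none was called.

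Gstm5, a mu-class gene, read 9.43, 9.33 and 9.15 in DHT animals, against 8.07, 8.48 and 4.96 in CTL animals. The groups did not overlap, with CTL replicate 3 again far below the others, and the log2 difference was 2.13 (SE 0.98, limma adjusted p = 0.493), or 1.03 without that animal (adjusted p = 0.0522), when Gstm5 was called higher. Its RefSeq promoter (GRCr8) holds the antioxidant core 2 times on the plus strand, in chr2:198219626-198219694 and chr2:198219686-198219754, and is shown because Gstm5 had the largest positive difference of the family.
Gstm5, distal match: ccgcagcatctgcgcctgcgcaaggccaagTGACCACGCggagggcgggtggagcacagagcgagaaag
Gstm5, proximal match: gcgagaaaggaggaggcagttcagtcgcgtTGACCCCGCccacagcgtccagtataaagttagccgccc
The capitals mark the core, and 7 of 19 other GST genes with a promoter sequence held at least 1 such match.

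Gstm7 read 7.72, 7.57 and 7.76 in DHT animals, against 6.46, 7.73 and 5.45 in CTL animals, with overlapping groups and a log2 difference of 1.14 (limma adjusted p = 0.56). Gstm4 differed by -0.33, so the mu class held genes on both sides of 0. Gsta1, an alpha-class gene long known from steroid-producing cells, read 11.71, 12.02 and 11.78 in DHT animals, against 11.67, 12.21 and 11.37 in CTL animals, a log2 difference of 0.09 (SE 0.24). The alpha-class genes Gsta1 and Gsta4 thus differed, with overlapping groups for the first and none for the second.

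Of the membrane-bound enzymes, Mgst3 read 7.05, 7.29 and 6.33 in DHT animals, against 6.71, 7.17 and 4.33 in CTL animals. Its log2 difference of 0.82 (SE 0.81, limma adjusted p = 0.896) became -0.05 without CTL replicate 3. Mgst2 differed by 0.30, Ptges, the inducible prostaglandin E synthase, by -0.55, and Ltc4s, which makes leukotriene C and was near background in 2 of the 3 CTL animals, read 2.83, 3.20 and 3.58 in DHT animals, against 2.84, 2.59 and 2.68 in CTL animals. A second, dimmer Ptges probe set differed by -1.73 with overlapping groups (limma adjusted p = 0.532). Alox5ap, the activating protein for leukotriene synthesis, was near background in all DHT animals (2.63, 2.58 and 2.52) and in CTL replicate 3. It read 3.69, 3.37 and 2.68 in CTL animals. Among the remaining soluble enzymes Gstk1 differed by -0.48, Gstz1 by 0.34, Gstcd by 0.27 and Gsto2, near background on most arrays, by 0.14.

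**Figure D4:**
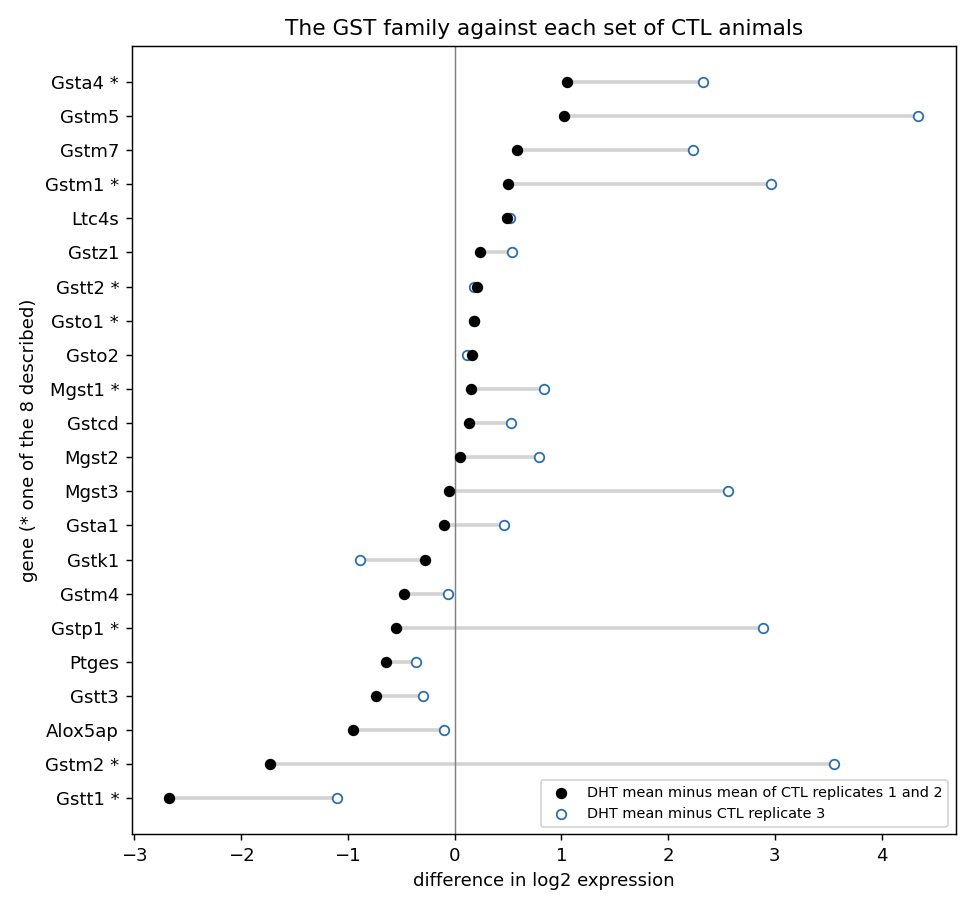
Difference in log2 expression (x axis) of the DHT mean from the mean of CTL replicates 1 and 2 (filled) and from CTL replicate 3 (open), for each GST gene that was above background on at least 1 of the 6 arrays (y axis; a star marks the 8 genes). Only Gstp1, Gstm2, Mgst3 and Gsta1 lie on opposite sides of 0 in the pair. Among the others, Gstt1 lies under 0 in both, and Gsta4, Gstm1 and Gstm5 lie over 0 in both.

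The rest of the glutathione pathway was counted in the same limma fit. With the other GST genes it held 73 measured genes of 81, of which 2 were called lower and 0 higher (0.351% and 0.68% of all probe sets), 13 had an unadjusted p under 0.05 (11.9% of all probe sets), 44 differences were negative, and the median was -0.03, as over all probe sets. Both genes called belong to the regulators and targets of the xenobiotic response, of which 19 of 19 were measured. Osgin1, an oxidative stress-induced growth inhibitor, read 4.51, 5.55 and 4.19 in DHT animals, against 9.62, 10.15 and 8.14 in CTL animals. It fell by 4.55 on the log2 scale (SE 0.64, adjusted p = 0.0708), with no overlap. Srxn1, sulfiredoxin, which repairs oxidized peroxiredoxins, was near background in the DHT animals (2.20, 2.40 and 2.21) and read 5.43, 6.50 and 5.40 in CTL animals. With DHT values under the background level set to that level, Srxn1 was at least 8.32-fold higher in CTL. The limma adjusted p of the values as deposited was 0.0508. Its further probe sets were near background in all animals, with log2 differences of -0.13 and -0.05. Nqo1, a quinone reductase and a standard Nrf2 target, read 3.03, 3.17 and 3.16 in DHT animals, against 5.19, 4.66 and 3.25 in CTL animals, and was not called (log2 difference -1.25, adjusted p = 0.441), though it was without CTL replicate 3 (-1.80, adjusted p = 0.0278). Leaving out any 1 DHT animal ended the calls of Osgin1 (adjusted p = 0.22 to 0.297) and Srxn1 (0.194 to 0.265), and leaving out CTL replicate 1 or 2 ended that of Osgin1 (0.161 and 0.15).

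Genes of glutathione synthesis and recycling were measured for 19 of 20, with 14 negative differences, a median of -0.18 and 0 called. Those with the smallest p were Gss, glutathione synthetase (-0.67, limma adjusted p = 0.24), Lap3, a leucine aminopeptidase (-0.74, 0.259), and Ggct, gamma-glutamylcyclotransferase (-0.85, 0.398). A second Ggct probe set, near background in all CTL animals, differed by 0.31 (limma adjusted p = 0.834). All DHT animals lay below all CTL animals for 6 of the 19, and above them for 0, where 6.85% and 10.6% of all probe sets did so. Among the 6, Gsr, Ggt1 and Chac1 were near background in all DHT animals and in CTL replicate 3. On that array they read 2.37, 2.75 and 2.87, and its background level was 3.09. Of the glutathione peroxidases and glutaredoxins 11 of 12 were measured and 0 called, with Glrx2, a mitochondrial glutaredoxin, at -0.74 (limma adjusted p = 0.123) and the peroxidases Gpx8 and Gpx7 of the endoplasmic reticulum at 0.90 (0.24) and 1.27 (0.302). Of the pumps that can carry conjugates out of the cell 8 of 9 were measured and 0 called. Abcc4 read 5.46, 5.53 and 5.09 in DHT animals, against 7.56, 6.58 and 6.44 in CTL animals, with no overlap and a log2 difference of -1.50 (limma adjusted p = 0.156), while Abcc5 and Abcc1 differed by 0.55 and 0.82 (limma adjusted p = 0.258 and 0.362).

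The genes whose values ran most like each GST over the 6 arrays of single animals were found by Pearson's r among 10302 genes above background. With so few arrays and 1 that stands apart, many genes reach a high r, and the values describe these arrays only. Gstt1 ran with Calml3 (r = 0.998), Cybb (0.996) and Idi1 (0.993), and Gstt2 with Zfp36l1 (0.995), Klhl26 (0.994) and Zfp280c (0.990). Cybb encodes the phagocyte oxidase subunit and Idi1 an enzyme of the cholesterol pathway. Gsta4 ran with Hpcal1, Polr2i and Wdr11 (r = 0.998 to 0.999). Gstm1 ran with Lrrc41, Selenon and Rps15 (0.997 to 0.999). Gstp1 ran with St13, Lgals1 and Cd9, and Gstm2 with Necap1, Insig2 and Sbds, all at 0.999, and for both CTL replicate 3 was the lowest of the 6 arrays. The highest r was lower for Gsto1, with Fam53b (0.980), Mterf2 (0.969) and Rgs12 (0.968), and for Mgst1, with Csnk1a1 (0.984), Cybc1 (0.982) and St3gal1 (0.980).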

How the data were processed

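Total RNA of 3 DHT and 3 CTL ovaries was hybridised singly, and 1 array per group held mixed RNA of the same 3 animals. The authors deposited 1 log2 expression value for each probe set, after background correction, normalization and summarization by GCRMA. The labels also name limma, and versions are not given in the sources used here. No raw data were processed. GCRMA adjusts for probe sequence and usually brings arrays to a shared probe distribution, which can shift differences when 1 array is unlike the rest, and array medians here were 2.97 to 3.03 except 3.25 on CTL replicate 3. Gene names came from the array annotation. Of 31042 probe sets without the 57 Affymetrix controls, 20826 carry 1 symbol, 436 several and 9780 none. Whether a probe set also reads close relatives in the family was not tested.

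DHT and CTL arrays of single animals were compared with lmFit and eBayes of limma 3.58.1 (R 4.3.3), and p-values were adjusted by Benjamini-Hochberg over 31042 probe sets. The calling thresholds are those the study applied, but the calls of this comparison come from the single-animal arrays and are not the study's own. The study lists Gstt1 among the repressed genes of glutathione metabolism, where it was not called here. Near background means not above the 95th percentile of 29 chemosensory receptor probe sets on the same array. Genes named are the 8 described with all their probe sets, every measured gene of the list of other GST genes, the 3 with the smallest p of each other list, and for each of the 8 genes the 3 with the highest r. The 8 genes, the lists and the alternatives were chosen with earlier results of these data known, so they support nothing by themselves. The fit was tested on simulated data of 31042 probe sets with the spread of the DHT animals, which is smaller than that of the CTL animals for most of the 8 genes. It recovered 34% of 50 probe sets changed by 1 on the log2 scale, 72% at 1.5, 90% at 2 and 94% at 3, with 2 false calls. The number of arrays limits the precision. The alternatives were mixed RNA as replicate 4, the replicate number as a block, quantile and median scaling, array quality weights, a trend of variance with mean, removal of dim probe sets, the Gapdh covariate, the mean of a gene's probe sets, each animal left out, other thresholds and mixed against mixed RNA.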

Additional observations from a re-analysis of the deposited data

How the results depend on the processing

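For the 8 genes, 0 were called lower and 0 higher with median scaling, removal of dim probe sets, a trend of variance with mean, the mean of all probe sets, the false discovery rate alone and the replicate block. Gstt1 was called lower and Gsta4 higher (1 each) with mixed RNA as replicate 4, quantile normalization and array quality weights, 1 lower and 4 higher with the Gapdh covariate, and Gstt1 alone (1 lower) with fold and p but no false discovery rate. Over all probe sets the shares called lower and higher were then 1.39% and 1.72% with mixed RNA as replicate 4, 0.277% and 0.28% with quantile normalization, 3.69% and 2.35% with quality weights, 3.5% and 8.57% with the Gapdh covariate, and 0.805% and 1.32% without the false discovery rate. Leaving out 1 animal at a time gave 0 to 1 lower and 0 to 1 higher, and both calls came without CTL replicate 3, whose quality weight was 0.028. Of the other GST and glutathione genes, 2 were called lower and 0 higher, which became 4 and 1 with mixed RNA as replicate 4, 7 and 1 with quality weights, 3 and 10 with the Gapdh covariate, and 0 to 5 lower and 0 to 1 higher on leaving out 1 animal. With any 1 DHT animal left out no probe set on the array was called, 0 of 31042, though 2529 to 2623 had an unadjusted limma p under 0.05, and Osgin1 and Srxn1 were then lost. Without CTL replicate 1 or 2 the call of Srxn1 remained and that of Osgin1 did not. With the replicate block, limma called 0 probe sets in all, where 3817 had an unadjusted p under 0.05, so Osgin1 and Srxn1 (adjusted p = 0.17 each) lost their calls. The sample titles give only replicate numbers, and whether these pair animals was not settled. The correlations of same-numbered deviations were -0.07, 0.44 and 0.34, and those of other-numbered ones ran from -0.53 to 0.48. With 3 deviations per group that sum to 0, and 1 array that stands apart, such correlations cannot decide it. Signs turned where differences were small or rested on CTL replicate 3. Gstm2 went to -0.11 with mixed RNA as replicate 4, -1.59 with quality weights, -0.52 between the mixed arrays and -1.73 to 0.95 on leaving out 1 animal. Gstp1 went to -0.59 with quality weights and -0.55 to 1.33 on leaving out 1 animal. Gsto1 was -0.071 and Mgst2 -0.19 between the mixed arrays. Gsta1 was -0.044 with mixed RNA as replicate 4, -0.24 with quantile normalization, -0.13 with quality weights, -0.44 between the mixed arrays and -0.10 to 0.32 on leaving out 1 animal. Mgst3 ranged from -0.053 to 1.37 on leaving out 1 animal. The cause of these changes was not tested.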
